A study of Mus musculus with 31 samples.

Results

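The 34 genes described here are Myc and genes of ribosome biogenesis, polyamine synthesis and pyrimidine synthesis that are known as targets of the MYC protein. They were taken by gene symbol, and all 34 were found in every one of 31 count tables, among 48211 symbols that the tables share. The tables come from bulk polyA RNA sequencing of CD4+ T cells or whole spleen of C57B/6 mice, sequenced to set tumors and a pre-lymphoma state of mouse models of peripheral T cell lymphoma beside normal cells. These mice carry a conditional Vav1Myo1f fusion allele, which joins Vav1, a signalling protein below the T cell receptor, to Myo1f, an unconventional myosin.

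Each comparison stayed within 1 of 3 sets. The pre-lymphoma set held CD4+ cells of fusion/fusion mice (n = 3), of control/fusion mice (n = 3) and of control mice (n = 2). The fusion/fusion label names the fl/wt fusion allele with CD4CreERT2 on both sides of a slash, the control/fusion label names it on 1 side and CD4-Cre-ERT2(WT) on the other, and the control label names CD4-Cre-ERT2(WT) alone. The labels do not say what the slash means. The CD4-Cre set held tumor mice labelled CD4-CreVav1Myo1f fl/wt, with 4 CD4+ and 3 spleen libraries, and normal mice labelled CD4-Cre(WT), with 3 CD4+ and 3 spleen libraries. The CD4-CreERT2 set held tumor mice labelled CD4-CreERT2Vav1Myo1f fl/wt, with 2 CD4+ and 3 spleen libraries, and normal mice labelled CD4-CreERT2 (WT), with 2 CD4+ and 3 spleen libraries. The labels of the controls name the Cre too, which is driven by Cd4 sequences, and CreERT2 acts only in the presence of tamoxifen. Tamoxifen doses and ages are not given in the sources used here, and nothing says whether a library pooled animals. Where separate animals are not stated, p-values measure only the spread between these libraries.

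MYC is a transcription factor that binds DNA as a dimer with MAX, often at the sequence CACGTG, which is called the E-box. Its targets include RNA polymerase I, the small nucleolar ribonucleoproteins (snoRNPs) that guide modification and cutting of ribosomal RNA, and the factors that assemble the small and the large ribosomal subunit. Ornithine decarboxylase, spermidine synthase and the pyrimidine enzyme CAD are further targets. T cells raise this programme when they leave the resting state, and ribosome production stays high in many lymphomas.

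Libraries of the pre-lymphoma set held 12632000 to 29258000 gene counts, those of the CD4-Cre set 24480000 to 37569000 and those of the CD4-CreERT2 set 24772000 to 36880000. Summed levels of 8 T cell markers were 4107 to 6902 CPM (counts of a gene relative to the library total, with TMM scaling within a set) in CD4+ libraries of the tumor models, against 867 to 2236 CPM in spleens. A few libraries stood apart. The CD4-CreERT2 spleen tumor library VM294 had counts for 18368 genes and the CD4-Cre CD4+ tumor library VM98 for 34546, against 21523 to 24649 in the others. In the CD4-Cre set, a tumor library and a pair of control libraries bear the same number, VM645, so whether they come from 1 mouse is not known. Values without them stand beside the results for which they were computed.

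The 34 genes took between 0.159% of all gene counts, in the spleen tumor library VM294, and 0.479%, in the CD4-Cre spleen tumor library VM388. To compare genes, levels were divided by the total length of all exons listed for a gene, 10188 bases for Ncl and 2665 for Npm1. This length can exceed that of the transcripts present, so the comparison is rough. On this scale nucleophosmin (Npm1), a chaperone that shuttles through the nucleolus, stood highest in the CD4-CreERT2 controls. It had 85.8 ± 11.8 CPM per kilobase in CD4+ cells (SD, n = 2) and 74.7 ± 6.5 in spleens (SD, n = 3). Utp20, a very large scaffold protein of the small subunit, was lowest, with 1.46 CPM per kilobase in control CD4+ cells and 2.49 in control spleens. The mean log2 CPM over the 34 genes was 6.19 ± 0.04 in fusion/fusion, 6.21 ± 0.06 in control/fusion and 6.32 ± 0.01 in control CD4+ cells (SD, n = 3, 3 and 2). In the CD4-Cre set it was 5.98 ± 0.14 in tumor and 5.85 ± 0.05 in control CD4+ cells (SD, n = 4 and 3), and 6.18 ± 0.34 in tumor and 5.82 ± 0.08 in control spleens (SD, n = 3 each). In the CD4-CreERT2 set it was 5.97 ± 0.32 in tumor and 5.87 ± 0.03 in control CD4+ cells (SD, n = 2 each), and 5.70 ± 0.68 in tumor and 6.05 ± 0.06 in control spleens (SD, n = 3 each). The ranges of tumor and control libraries overlapped in the CD4-Cre CD4+, CD4-CreERT2 CD4+ and CD4-CreERT2 spleen comparisons. They did not in the CD4-Cre spleens, where tumors ran from 5.94 to 6.57 and controls from 5.74 to 5.88. These means are a description, and no test was made of them.

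**Figure D1:**
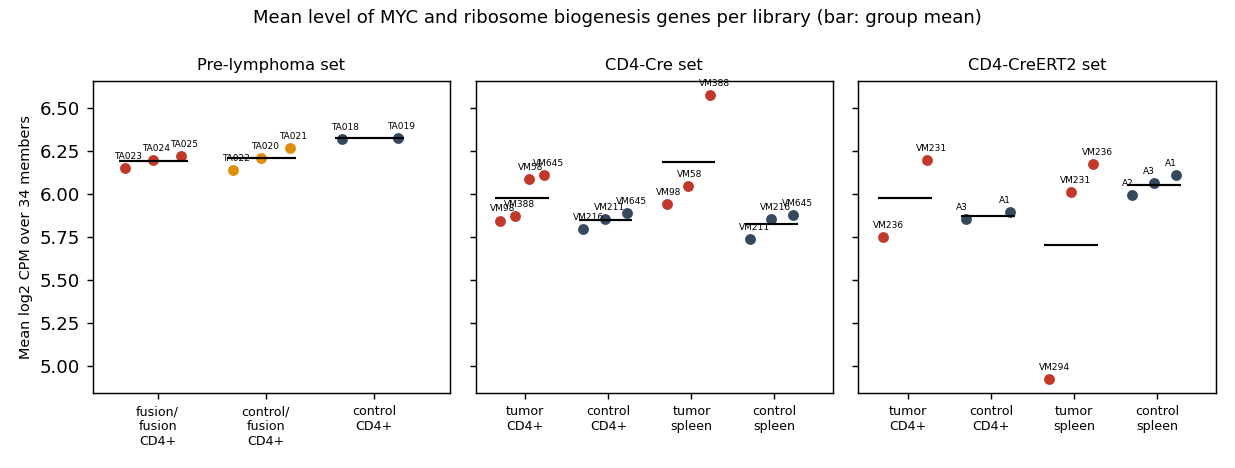
Mean log2 CPM over the 34 genes (y axis) in each of 31 libraries (points), by set and group, with group means as lines. The control CD4+ libraries of the pre-lymphoma set sit above all fusion/fusion and control/fusion libraries, and the spleen tumor library VM294, at 4.93, lies below every other library.

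Before lymphoma, Odc1 rose while many ribosome assembly genes fell. In fusion/fusion against control CD4+ cells, 3 of the 34 genes rose, where 23.8% of 16257 tested genes were called higher, and 16 fell, where 22% were called lower. In control/fusion against control, 1 rose and 9 fell, where 11.6% of tested genes were called higher and 8.7% lower. A call is an adjusted p under 0.05 in edgeR's quasi-likelihood test, adjusted by Benjamini-Hochberg over all genes tested, and all 34 genes passed the filter on low counts in every comparison. The median log2 fold change of the 34 genes was -0.16 in fusion/fusion and -0.13 in control/fusion against control, while the medians over all tested genes were -0.008 and 0.001. Positive fold changes numbered 9 of 34 in fusion/fusion and 7 in control/fusion, where 49.5% and 50.1% of all tested genes were positive. In fusion/fusion 6 of the 34 genes lay wholly above and 18 wholly below the controls, where 33.1% and 32.8% of all tested genes did, and in control/fusion 3 and 18 did, where 26.4% and 26.3% did. Both comparisons use the same 2 control libraries. Without the control library TA019, 1 gene rose and 12 fell in fusion/fusion, where 16.5% of tested genes were called higher and 15.7% lower, and in control/fusion 3 fell (Nop56, Ppan and Wdr12), where 2.08% were called lower. Without the library TA022, 5 fell in control/fusion, where 6.88% were called lower.

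**Figure D2:**
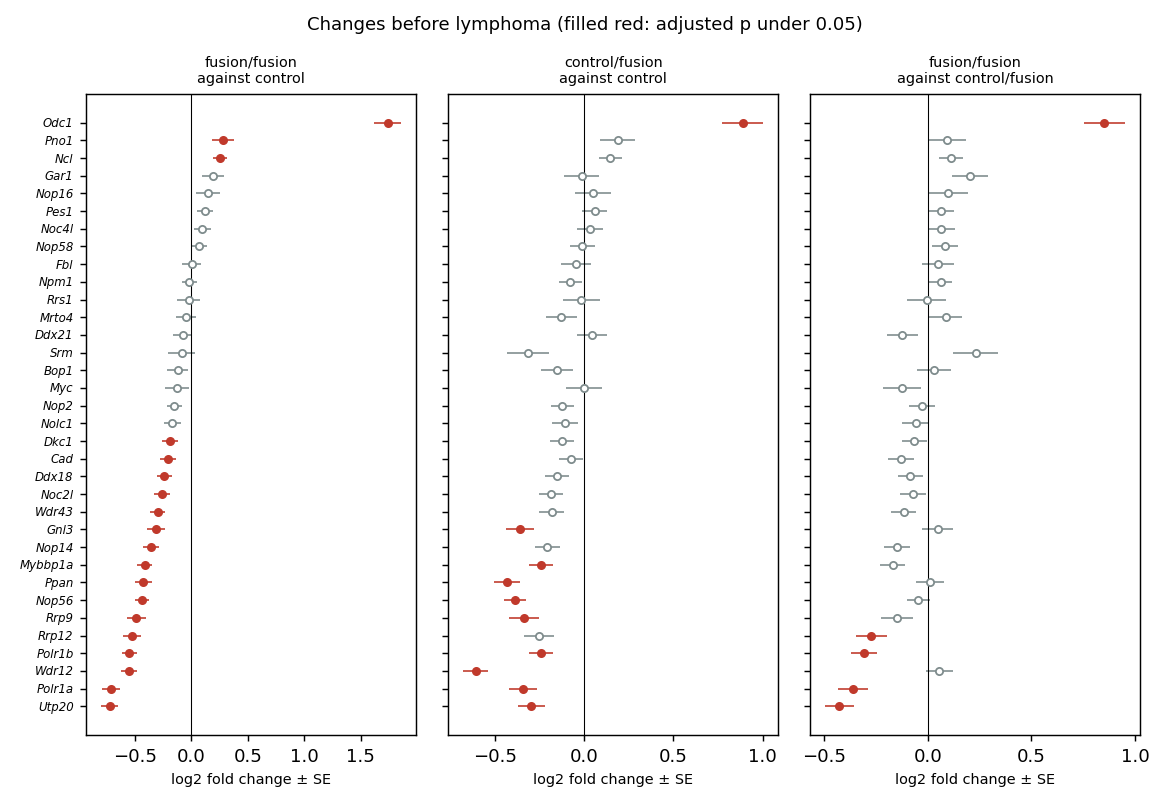
Log2 fold change with standard error (x axis) of each of the 34 genes (rows) in fusion/fusion and in control/fusion against control CD4+ cells, with called genes marked. Odc1 lies far to the right at 1.74 in fusion/fusion and 0.89 in control/fusion, and the Pol I subunits, Utp20 and Wdr12 lie to the left of zero in both.

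Myc itself (chr15:61985391-61990374, plus strand, GRCm38) was not called before lymphoma. It had 76.2, 88.3 and 89.1 CPM in fusion/fusion libraries, 92.1, 102.7 and 81.8 CPM in control/fusion libraries and 88.2 and 95.9 CPM in control libraries. The 3 groups overlapped. The log2 fold change was -0.13 ± 0.10 (SE) in fusion/fusion (edgeR adjusted p = 0.34) and -0.001 ± 0.103 in control/fusion (edgeR adjusted p = 0.995).

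Odc1 (chr12:17544873-17551502, plus strand) encodes ornithine decarboxylase, the rate-limiting enzyme of polyamine synthesis. It had 212.1, 240.6 and 246 CPM in fusion/fusion libraries, 123.7, 136.8 and 126.5 CPM in control/fusion libraries and 79.2 and 60.1 CPM in control libraries. No range overlapped another: every fusion/fusion library lay above every control/fusion library, and these lay above both controls. The rise over control was 3.34-fold in fusion/fusion (log2 1.74 ± 0.12, edgeR adjusted p = 5.2e-06) and 1.85-fold in control/fusion (0.89 ± 0.12, edgeR adjusted p = 0.001). The direct test of fusion/fusion against control/fusion gave 0.85 ± 0.10 (edgeR adjusted p = 0.00066). Of the other enzymes of this kind, Cad, which starts pyrimidine synthesis, fell in fusion/fusion (-0.20 ± 0.07, edgeR adjusted p = 0.029). Srm, spermidine synthase, was not called, with -0.08 ± 0.12 in fusion/fusion and -0.32 ± 0.12 in control/fusion.

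**Figure D3:**
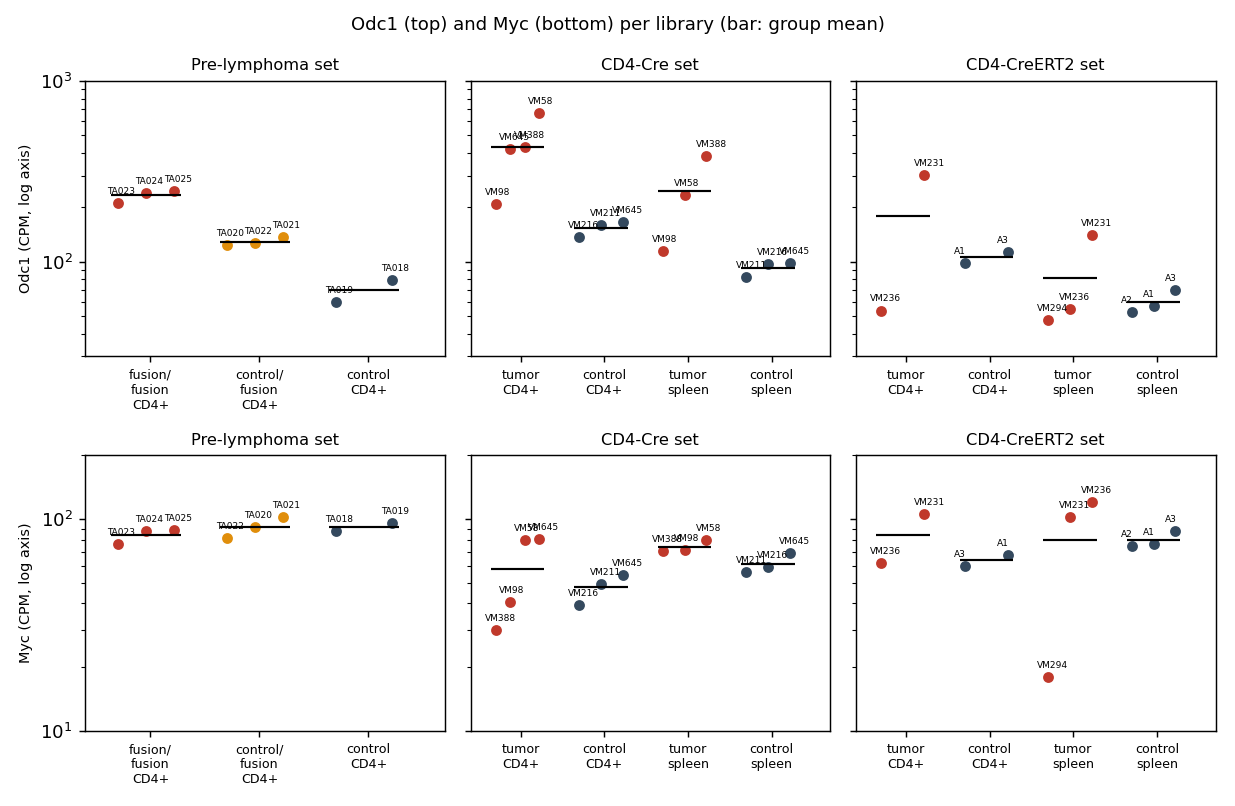
TMM-scaled CPM of Odc1 and of Myc (y axes, log scale) in each library (points), by set and group. Odc1 of the 3 fusion/fusion libraries lies between 212.1 and 246.0 CPM, above the other pre-lymphoma libraries, while the Myc points of the 3 groups overlap.

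Both RNA polymerase I subunits among the 34 genes fell in both fusion groups. Of all tested genes, 22% were called lower in fusion/fusion and 8.7% in control/fusion. Polr1a, the largest subunit of the enzyme that transcribes ribosomal RNA, had 67.6, 61.5 and 72.3 CPM in fusion/fusion, 89.4, 88.8 and 80.9 CPM in control/fusion and 108.6 and 110.4 CPM in control libraries. Its log2 fold change was -0.71 ± 0.08 in fusion/fusion (edgeR adjusted p = 7.9e-05) and -0.34 ± 0.08 in control/fusion (edgeR adjusted p = 0.013). Polr1b, the second largest subunit, had 28.9, 28.4 and 29.1 CPM in fusion/fusion, 35.4, 36.5 and 35.1 CPM in control/fusion and 42.2 and 42 CPM in control libraries. The 3 groups did not overlap for either gene, and fusion/fusion was the lowest for both.

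Of 6 genes of the small subunit, 4 fell and 1 rose in fusion/fusion, where 22% of tested genes were called lower and 23.8% higher. In control/fusion 1 fell, where 8.7% of tested genes were called lower. Utp20 (chr10:88746607-88826814, minus strand) had 46.9, 42.1 and 47.9 CPM in fusion/fusion, 63.9, 61.8 and 58.6 CPM in control/fusion and 77 and 73.6 CPM in control libraries. The groups did not overlap, and Utp20 had the largest fall of the 34 genes in fusion/fusion, -0.72 ± 0.07 (edgeR adjusted p = 5.1e-05). In control/fusion it fell by 0.30 on the log2 scale. Rrp12, which acts in maturation and export of the subunits, had 27.8, 26.8 and 29.1 CPM in fusion/fusion, 33, 36.7 and 31.6 CPM in control/fusion and 39.9 and 40.4 CPM in control libraries. It fell in fusion/fusion (-0.53 ± 0.08) and was not called in control/fusion, and the difference between the fusion groups passed the test. Nop14 and Wdr43, both processome proteins, fell in fusion/fusion by 0.36 and 0.30 on the log2 scale. Pno1, a factor of late small subunit assembly, rose in fusion/fusion, with 25.9, 24.5 and 22.9 CPM against 19.6 and 20.8 CPM in control libraries (0.28 ± 0.10, edgeR adjusted p = 0.041). Noc4l, the sixth gene, was not called in either fusion group.

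Among 6 snoRNP genes, 3 fell in fusion/fusion, where 22% of tested genes were called lower, and 2 in control/fusion, where 8.7% were. Nop56, a core protein of the box C/D snoRNPs, had 114, 123.4 and 122.7 CPM in fusion/fusion, 125.4, 124.9 and 121.4 CPM in control/fusion and 160.6 and 163.8 CPM in control libraries. Rrp9, a protein of the U3 snoRNP, had 35, 38.6 and 40.8 CPM in fusion/fusion, 42.4, 44.3 and 40.1 CPM in control/fusion and 51 and 55.6 CPM in control libraries. For both genes the fusion groups overlapped each other and lay below both controls. Nop56 changed by -0.43 ± 0.06 in fusion/fusion and -0.39 ± 0.06 in control/fusion, and Rrp9 by -0.49 ± 0.08 and -0.34 ± 0.08. Dkc1, the pseudouridine synthase of the box H/ACA snoRNPs, fell by 0.19 on the log2 scale in fusion/fusion, and its difference between the fusion groups did not pass the test. Fbl, Nop58 and Gar1 were not called.

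Of 10 genes of the large subunit, 4 fell in fusion/fusion, where 22% of tested genes were called lower. In control/fusion 2 fell, where 8.7% of tested genes were called lower. Wdr12 (chr1:60069785-60098645, minus strand), which acts with Bop1 and Pes1 in 1 complex, had 31.3, 31.4 and 30.9 CPM in fusion/fusion, 30.2, 29.6 and 30.3 CPM in control/fusion and 43.9 and 47.7 CPM in control libraries. Its fall was -0.55 ± 0.07 in fusion/fusion (edgeR adjusted p = 0.00016) and -0.61 ± 0.07 in control/fusion (edgeR adjusted p = 0.00064), and the fusion groups differed by 0.06 ± 0.06, which was not called. Its partners Bop1 and Pes1 were not called. Ppan, a large subunit assembly factor, had 58.2, 62.8 and 67.4 CPM in fusion/fusion, 63.4, 60.9 and 62.4 CPM in control/fusion and 81.2 and 87 CPM in control libraries, so that both fusion groups lay below both controls. Noc2l and the helicase gene Ddx18 fell in fusion/fusion by 0.26 and 0.24 on the log2 scale. Exons of Noc2l share 20.9% of their bases with Samd11, and the strand of counting is not given in the sources used here, so its counts are uncertain.

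Among 6 further nucleolar proteins, Mybbp1a and Gnl3 fell in both fusion groups. The shares of all tested genes called lower were 22% in fusion/fusion and 8.7% in control/fusion. Mybbp1a, a nucleolar binding partner of MYB, had 167.7, 162 and 176.9 CPM in fusion/fusion, 186.1, 200.6 and 183 CPM in control/fusion and 220.3 and 228.7 CPM in control libraries. Gnl3, the GTPase nucleostemin, had 59.3, 58.6 and 55.8 CPM in fusion/fusion, 55.8, 61.4 and 51.3 CPM in control/fusion and 69.5 and 74.3 CPM in control libraries. Neither fusion group overlapped the controls for either gene. Ncl, nucleolin, rose in fusion/fusion, with 777, 784.7 and 771.4 CPM in fusion/fusion, 696.2, 738.6 and 725.9 CPM in control/fusion and 670 and 632.8 CPM in control libraries. The log2 fold change was 0.26 ± 0.06 in fusion/fusion (edgeR adjusted p = 0.0084), and the control/fusion libraries lay between the other groups without overlap. Npm1, Nolc1 and Ddx21 were not called.

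The contrast of fusion/fusion with control/fusion sets no control library against them. Odc1 rose, where 9.59% of tested genes were called higher, and Utp20, Polr1a, Polr1b and Rrp12 fell, where 9.3% were called lower. Utp20 changed by -0.43 ± 0.07, Polr1a by -0.36 ± 0.07, Polr1b by -0.31 ± 0.06 and Rrp12 by -0.27 ± 0.08 (edgeR adjusted p = 0.003, 0.0079, 0.0077 and 0.031). The 34 genes had a median of -0.017 in this comparison, with 16 positive and 18 negative fold changes.

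Other genes of the same pathways moved in both directions, and their counts stand beside the same background of 23.8% of tested genes called higher and 22% lower in fusion/fusion, and 11.6% and 8.7% in control/fusion. In fusion/fusion against control, 17 of 39 tested small subunit processome genes fell and 1 rose, with a median log2 fold change of -0.18, and in control/fusion 9 fell. The small subunit gene Heatr1 fell (-0.59 ± 0.09), as did Nat10, an acetyltransferase of ribosomal RNA (-0.51), while Nol10 rose (0.61 ± 0.08). Of 35 large subunit genes, 12 fell and 1 rose in fusion/fusion, and 7 fell in control/fusion. Mdn1, a giant ATPase that remodels large subunit precursors, fell most (-1.23 ± 0.11 in fusion/fusion, edgeR adjusted p = 2e-05, and -0.55 in control/fusion), followed by Urb1 (-0.88 ± 0.09) and Nle1 (-0.69) in fusion/fusion. Of 15 further genes of the Pol I machinery, 5 fell and 2 rose in fusion/fusion and 2 fell in control/fusion, and Taf1a, a subunit of the Pol I selectivity factor, fell by 0.52 ± 0.12 in fusion/fusion. Of 9 further snoRNP genes, 1 rose in fusion/fusion (Pih1d1, 0.33).

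Partners and competitors of MYC and its metabolic targets were counted in the same way, beside 23.8% called higher and 22% lower in fusion/fusion and 11.6% called higher in control/fusion. Of 11 other genes of the MYC network, 3 rose and 3 fell in fusion/fusion and 3 rose in control/fusion. Mxd3, whose protein competes with MYC for MAX, rose by 2.37 ± 0.24 in fusion/fusion (edgeR adjusted p = 5.1e-05) and 1.35 in control/fusion. Mycl, a MYC family member, rose by 1.10 ± 0.27 in fusion/fusion and was 2.83-fold higher in control/fusion than in control, and Mga fell by 0.85 ± 0.10 in fusion/fusion. Of 27 other polyamine and nucleotide genes, 9 rose and 4 fell in fusion/fusion, among them Azin2 (2.91 ± 0.47) and Azin1 (0.46), which encode inhibitors of the degradation of ornithine decarboxylase, and spermine oxidase, Smox (0.95 ± 0.10). Impdh1, an enzyme of guanine nucleotide synthesis, fell by 0.63. Of 20 genes for translation and other MYC targets, 7 rose and 2 fell in fusion/fusion, and Eif4ebp1, an inhibitor of cap-dependent translation, rose by 0.80 ± 0.15, Tfrc, the transferrin receptor, by 0.70 ± 0.12 and Eif5a, the translation factor modified with a spermidine-derived residue, by 0.53 ± 0.09.

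Other measures moved with these groups. The share of reads aligned to a single place that matched no gene was 7.28% to 8.46% in fusion/fusion, 8.74% to 9.82% in control/fusion and 10.91% to 12.82% in control libraries. All 9 erythroid markers tested rose in fusion/fusion and 8 rose in control/fusion, with summed levels of 349.4 to 410.7 CPM in fusion/fusion, 176.9 to 567.7 in control/fusion and 93 to 150.7 in control libraries, and none of them was at 0 in any library. Tfrc is on both lists. All 6 plasma cell markers rose in fusion/fusion, with sums of 1302 to 1493 CPM, 609.1 to 730.4 CPM in control/fusion and 443.8 to 677.7 CPM in control libraries. All 6 dendritic cell markers rose in control/fusion and 4 in fusion/fusion, with sums of 176 to 195.2 CPM in fusion/fusion, 175.1 to 240 CPM in control/fusion and 70.8 to 100 CPM in control libraries. Summed T cell markers were 5026 to 5399 CPM in fusion/fusion, 4591 to 5053 CPM in control/fusion and 4519 to 4774 CPM in control libraries. The part of these measures in the changes of the 34 genes was not tested. In bulk RNA, fewer cells of a type and less RNA per cell cannot be told apart.

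The changes also differed with the total length of all exons listed for a gene, which is not the length of a transcript. In fusion/fusion against control, the 17 members with exons longer than 2978.5 bases in all had a median log2 fold change of -0.30 and the 17 shorter members one of -0.08. Spearman's correlation between exon length and log2 fold change was -0.49 across the 34 genes and -0.10 across all tested genes with a length. In control/fusion against control the values were -0.26 and 0.02, and in fusion/fusion against control/fusion they were -0.5 and -0.21. These correlations are across genes, which share the libraries, and whether length bears on the calls was not tested.

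The E-box was searched in the RefSeq promoter windows of GRCm38.p6, which run from 250 bases before to 50 bases after a gene's start. Of the 34 genes, 27 had a window, and Myc, Npm1, Fbl, Bop1, Rrs1, Rrp12 and Srm had none. The letters CACGTG, which read the same on both strands, stood in the window of 6 of the 27 genes (22.2%), against 8.1% of 27025 genes in the table. Before the start they stood in 1 of 27 (3.7%), Nop2, against 6.9% of all genes. The 30 bases around each match are printed because they show the E-box that MYC is known to bind, with that match in capitals, 5′ to 3′ on the gene's strand. They were chosen after the data were seen.
Nop2: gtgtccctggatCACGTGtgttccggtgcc
Wdr43: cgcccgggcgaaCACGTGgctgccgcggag
Pes1: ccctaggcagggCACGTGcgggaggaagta
Mybbp1a: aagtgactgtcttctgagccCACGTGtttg
Pno1: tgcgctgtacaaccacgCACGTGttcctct
Utp20: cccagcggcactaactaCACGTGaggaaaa
The stretch of Nop2, a methyltransferase of large subunit RNA, is chr6:125131811-125131840 (plus strand), with the match 60 bases before the start. Those of Wdr43, chr17:71616220-71616249 (plus), and of Pes1, chr11:3963965-3963994 (plus), hold it 18 and 3 bases after the start. Mybbp1a, chr11:72441347-72441376 (plus), has it 41 bases after the start, and Pno1, chr11:17211540-17211569 (minus), and Utp20, chr10:88826765-88826794 (minus), 38 bases after it. In fusion/fusion against control, Utp20, Mybbp1a and Wdr43 of these genes fell, Pno1 rose, and Nop2 and Pes1 were not called. Whether these letters bear on the changes was not tested.

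In tumors, none of the 34 genes passed the edgeR test in any of the 4 comparisons with control. In CD4+ cells of the CD4-Cre set, where 0.0168% of 17841 tested genes were called higher and 0.14% lower, 1 of the 34 genes passed an unadjusted p of 0.05, where 15.1% of all genes did, and DESeq2 called 1 higher, Odc1, where it called 3.65% of all genes higher. In CD4-Cre spleens, where 0% were called in either direction, 9 passed an unadjusted p of 0.05, where 13.9% of all genes did, and DESeq2 called 4 higher (Odc1, Cad, Rrp12 and Mybbp1a), where it called 2.42% of all genes higher. In CD4+ cells of the CD4-CreERT2 set, where 0% were called in either direction, 0 passed an unadjusted p of 0.05, where 5.17% of all genes did, and DESeq2 called 0, where it called 1.3% of all genes higher and 0.242% lower. In CD4-CreERT2 spleens, where 0% were called in either direction, 1 passed an unadjusted p of 0.05, where 20.1% of all genes did, and DESeq2 called 0, where it called 8.23% higher and 3.02% lower. Of other MYC network and ribosome genes, edgeR called Mycl, lower in CD4-Cre CD4+ tumors (-4.88 ± 0.54, adjusted p = 0.03). Summed dendritic cell markers were 27.8 to 114 CPM in these CD4+ tumor libraries and 268.5 to 457.6 CPM in their controls. The part of dendritic cells in the Mycl value was not tested.

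**Figure D4:**
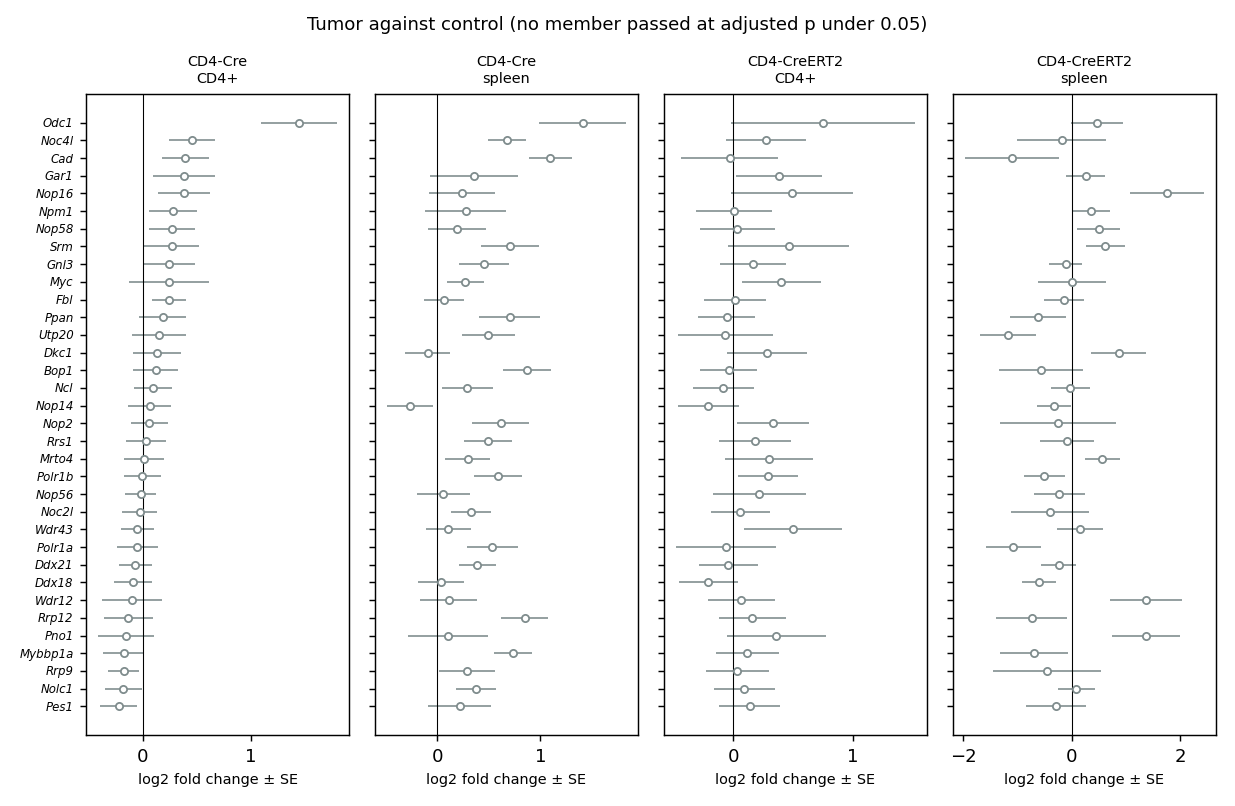
Log2 fold change with standard error (x axis) of each of the 34 genes (rows) in tumor against control, for the 4 combinations of set and tissue. None is called, and the bars are widest in the CD4-CreERT2 spleens, where the fold changes run from -1.16 for Utp20 to 1.75 for Nop16.

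In CD4+ cells of the CD4-Cre set, Odc1 had the largest difference. It had 433.7 CPM in tumor library VM388, 662.6 in VM58, 420.7 in VM645 and 208.8 in VM98, against 160, 137.4 and 166.2 CPM in control libraries. All 4 tumor libraries lay above all 3 controls. The log2 fold change was 1.45 ± 0.35 (edgeR adjusted p = 0.13), 1.67 without VM98 (edgeR adjusted p = 0.0221, where 1.44% of tested genes were called higher) and 1.501 ± 0.472 without the VM645 libraries (edgeR adjusted p = 0.361). Over all alternatives its adjusted p ran from 0.00222 to 0.459. In VM98, 23.67% of reads aligned to a single place matched no gene, against 13.45% to 17.49% in the other CD4+ libraries of the set. Its neutrophil markers summed to 2000 CPM, against 177.5 to 927.8 CPM in control CD4+ libraries. Noc4l, of the small subunit processome, had 76.1, 86 and 90.3 CPM in VM388, VM58 and VM645 and 50.8 CPM in VM98, against 54.2, 51.2 and 56.1 CPM in controls, so VM98 lay below the controls and the other tumor libraries above them (0.46 ± 0.21, edgeR adjusted p = 0.361, 0.60 ± 0.15 without VM98 and 0.38 ± 0.25 without the VM645 libraries). Cad had 40.9, 50, 35.8 and 55.8 CPM in tumor against 39.2, 34.8 and 27.5 CPM in control libraries, with overlapping ranges (0.40 ± 0.22, edgeR adjusted p = 0.446, and 0.27 and 0.36 without VM98 and without VM645). Myc had 29.9 CPM in VM388, 79.9 in VM58, 80.8 in VM645 and 40.6 in VM98, against 49.6, 39.2 and 54.4 CPM in controls. For Myc, VM58 and VM645 lay above all controls and VM388 below all of them. Its log2 fold change was 0.25 ± 0.37 (edgeR adjusted p = 0.814), 0.37 ± 0.38 without VM98 and 0.13 ± 0.43 without VM645. By counts of Xist and Ddx3y, the tumor libraries VM58, VM645 and VM98 and the control VM645 are female. The tumor library VM388 and the controls VM211 and VM216 are male, so sex is uneven between tumor and control. With sex as a term Myc was -0.152.

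In CD4-Cre spleens, 32 of 34 fold changes were positive, where 52.8% of all tested genes were, and the median was 0.34 against 0.043 over all genes. The library VM388 stood highest. In it, 33 of the 34 genes lay above the control mean, with a median difference of 0.80, while 22 did in VM58 (0.15) and 20 in VM98 (0.09). Markers of germinal centre B cells, 4 genes, summed to 634.4 CPM in the VM388 spleen, 52.1 in VM58 and 44.4 in VM98, against 27.6 to 59.6 CPM in control spleens, and their part in the values of VM388 was not tested. Without the VM388 spleen, 21 fold changes were positive and the median was 0.24. By Xist and Ddx3y, the tumor spleens VM58 and VM98 and the control VM645 are female, and VM388, VM211 and VM216 are male. With sex as a term 32 fold changes were positive and the median was 0.385. Cad had 57.9, 74.8 and 55.2 CPM in tumor spleens, against 31.6, 28.9 and 28 CPM in control spleens, without overlap (1.10 ± 0.21, edgeR adjusted p = 0.207). Bop1, of the large subunit, had 137.4, 104 and 83.9 CPM in tumor against 51.3, 65.9 and 61.1 CPM in control spleens (0.87 ± 0.24, edgeR adjusted p = 0.248), also without overlap. Odc1 had 386, 234.4 and 115 CPM in tumor spleens VM388, VM58 and VM98, against 81.9, 96.9 and 98.5 CPM in control spleens (1.41 ± 0.42, edgeR adjusted p = 0.268). The groups did not overlap, and VM98 lay nearest to the controls. Without VM98, edgeR called Odc1, Cad, Ppan and Bop1, with 1.80, 1.23, 1.002 and 1.08 (adjusted p = 0.0247, 0.0376, 0.0436 and 0.0484), where 1.09% of tested genes were called higher. Without the VM645 control, Cad, Bop1, Odc1 and Myc were 1.06, 0.90, 1.46 and 0.36, and none was called. Over all alternatives the adjusted p of Odc1 ran from 0.0247 to 0.696. Myc had 70.5, 79.8 and 71.8 CPM in tumor and 56.4, 59.3 and 69.1 CPM in control spleens, without overlap, and a log2 fold change of 0.27 ± 0.18 (edgeR adjusted p = 0.535). Without overlap between groups, 12 of the 34 genes were higher in tumor spleens and 1 lower, where 11.1% and 11.3% of all tested genes were.

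**Figure D5:**
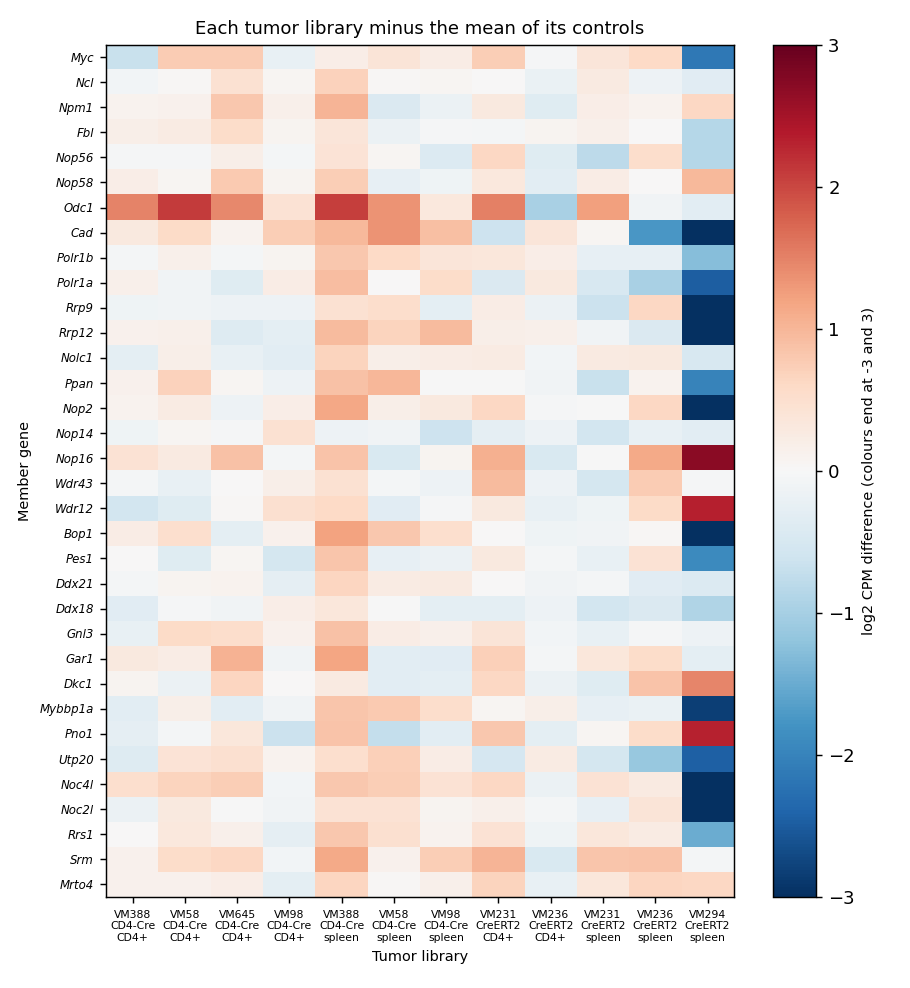
Difference in log2 CPM of each of the 34 genes from the mean of the control libraries of the same set and tissue (y axis), by tumor library (x axis). In VM388 spleen 33 of 34 genes lie above zero, in VM294 spleen 27 lie below it, and VM294 spans from -5.50 to 2.71.

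Markers of other cell types also differed between these libraries. Summed B cell markers were 1708 to 6032 CPM in CD4-Cre tumor spleens and 6563 to 7442 CPM in control spleens, and neutrophil markers 151 CPM in VM388, 207.1 in VM58 and 74650 in VM98, against 6657 to 48090 CPM in control spleens. In CD4+ cells of that set, macrophage markers were 455 to 4055 CPM in tumor and 4192 to 6088 CPM in control libraries. In CD4-CreERT2 spleens, B cell markers were 1048 to 5924 CPM in tumor and 9088 to 9406 CPM in control, and neutrophil markers 2367 to 101000 CPM in tumor and 343.1 to 791.9 CPM in control. Macrophage markers there were 4636 to 15370 CPM in tumor and 1435 to 1753 CPM in control, and erythroid markers 170.7 to 1014 CPM in tumor and 44 to 46.8 CPM in control. In those spleens edgeR called 0 of the 8 B cell markers and 0 of the 7 neutrophil markers, where 0% of all tested genes were called in either direction. The part of these cells in the values of the 34 genes was not tested.

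In CD4+ cells of the CD4-CreERT2 set, the tumor libraries went opposite ways. In VM231 27 of the 34 genes lay above the control mean, and in VM236 27 lay below it. Odc1 had 302.5 CPM in VM231 and 53.8 in VM236, against 98.3 and 113 CPM in control libraries (0.75 ± 0.77, edgeR adjusted p = 1). Wdr43 had 302.1 and 140 CPM in VM231 and VM236, against 153.6 and 159.9 CPM in controls, and Nop16, a large subunit factor, had 99.4 and 34.6 CPM against 45.7 and 49.8 CPM. VM231 lay above both controls and VM236 below both for these 3 genes. Myc had 105.6 CPM in VM231 and 62.4 in VM236, against 67.5 and 60.1 CPM in controls (0.40 ± 0.33, edgeR adjusted p = 1). Without VM236, with a single tumor library whose spread is taken to be that of the controls, Myc was called (0.74, edgeR adjusted p = 0.0415), as were Odc1 (1.53, adjusted p = 0.00305), Nop16, Wdr43, Pno1 and Srm, where 10.4% of tested genes were called higher. By counts of Xist and Ddx3y, VM231 is male and VM236 and both controls are female, so sex and the library VM231 cannot be told apart here. With sex as a term, Odc1 was -0.95 ± 0.19 (edgeR adjusted p = 0.102) and Myc -0.007, values that rest on VM236 against the controls. Neutrophil markers summed to 5800 CPM in VM231 and 73.9 CPM in VM236, against 40.2 to 58.6 CPM in controls. Macrophage markers were 3272 and 3517 CPM in VM231 and VM236, against 513.9 to 1007 CPM in controls. Erythroid markers were 131.2 and 105.9 CPM in these tumors, against 29.5 to 35.7 CPM in controls, and B cell markers 443.1 and 1387 CPM, against 2704 to 2863 CPM. The part of these cells in the values was not tested.

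In CD4-CreERT2 spleens, the library VM294 set the extremes. Nop16 had 46.4 CPM in VM231, 102.6 in VM236 and 304.7 in VM294, against 49.1, 44.1 and 46.9 CPM in control spleens. Wdr12 had 48, 77.4 and 265 CPM in these tumors against 56.8, 51.4 and 48.9 CPM in controls, and Pno1 had 32.8, 46.1 and 156 CPM against 34.3, 31.3 and 29.2 CPM. In each of the 3 genes VM294 lay far above all other spleens, and VM231 lay at or near the controls. With VM294 the log2 fold changes were 1.75 ± 0.68, 1.37 ± 0.66 and 1.36 ± 0.63 for Nop16, Wdr12 and Pno1, and without it 0.67 ± 0.34, 0.26 ± 0.25 and 0.32 ± 0.23 (edgeR, none called). At the other end VM294 had 1.47 CPM of Nop2, 1.6 CPM of Rrp9 and 2.61 CPM of Cad. Its plasma cell markers summed to 67760 CPM, against 2715 to 5787 CPM in control spleens. The mean log2 CPM of the same 6 markers was 8.21 in VM294 and 6.91 to 7.74 in control spleens. The list as a whole thus differed far less than its sum, and the part of these cells in the values of VM294 was not tested. Myc had 102.2, 119.9 and 18 CPM in VM231, VM236 and VM294, against 75.9, 74.7 and 88 CPM in control spleens, so that VM231 and VM236 lay above all controls and VM294 below them. Its log2 fold change was 0.01 ± 0.62 with VM294 and 0.49 ± 0.19 without it (edgeR adjusted p = 0.18). Odc1 had 140.2, 54.7 and 47.9 CPM in these tumors against 56.7, 52.7 and 69.7 CPM in controls, and only VM231 lay above them. Without VM294 the median log2 fold change of the 34 genes was 0.11, against -0.16 with it. By counts of Xist and Ddx3y, VM231 and VM294 are male, while VM236 and the control spleens are female. Sex therefore cannot be told apart from the libraries VM231 and VM294. With sex as a term the median was 0.147, with 20 of 34 fold changes positive, values that rest on VM236 against the controls.

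The differences of tumor effects were tested directly. For CD4+ cells minus spleen in CD4-Cre mice, edgeR called 0 of the 34 genes, where 0% of 19503 tested genes were called. At an unadjusted p under 0.05 there were 4, where 7.32% of all genes passed, and 0 by DESeq2, where it called 0.138% higher and 0.123% lower. Rrp12 (-0.94 ± 0.31), Mybbp1a (-0.87 ± 0.25) and Bop1 (-0.71 ± 0.32) had the largest differences, with a smaller tumor effect in CD4+ cells. For Myc the difference was 0.01 ± 0.44. Between the spleens of CD4-CreERT2 and CD4-Cre mice, where 0.045% were called higher and 0% lower, edgeR called 0 of the 34 genes. At an unadjusted p under 0.05 there were 6, where 19% of all genes passed, and 0 by DESeq2, where it called 4.22% higher and 1.94% lower. Cad (-2.22 ± 0.94), Utp20 (-1.66 ± 0.56) and Polr1a (-1.62 ± 0.56) had the largest differences, with a lower tumor effect in CD4-CreERT2 spleens. Without VM294 they were -1.69, -1.32 and -1.26. Without VM231 edgeR called all 3 lower (-3.57, -2.10 and -2.03, adjusted p = 0.0221, 0.0361 and 0.0432 for Cad, Utp20 and Polr1a), where 3.38% of tested genes were called lower. The tables of these sets list their genes differently, and whether the same counter made them is not known. Each set was compared with its own controls.

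Between tissues of control mice, Odc1 was higher in CD4+ cells in both sets. In the CD4-Cre set, 3 of the 34 genes were higher in CD4+ cells than in spleen, where 12.9% of 17426 tested genes were, and 2 were lower, where 12.8% were. Odc1 had 160, 137.4 and 166.2 CPM in CD4+ cells against 81.9, 96.9 and 98.5 CPM in spleens (0.74 ± 0.12, edgeR adjusted p = 0.0053). Ddx21, a helicase that senses Pol I activity, had 73.5, 69.9 and 63 CPM in CD4+ cells against 51.6, 47.7 and 49.2 CPM in spleens (0.47 ± 0.10), and Bop1 95.5, 81.5 and 73.5 CPM against 51.3, 65.9 and 61.1 CPM (0.49 ± 0.14). These 3 genes did not overlap between tissues. Nop16 had 30.6, 34.2 and 39.6 CPM in CD4+ cells against 44.4, 52.1 and 56 CPM in spleens (-0.55 ± 0.14), and Dkc1 98.7, 83.8 and 111 CPM against 135, 126.9 and 136.4 CPM (-0.45 ± 0.13), both without overlap. Myc had 49.6, 39.2 and 54.4 CPM in CD4+ cells and 56.4, 59.3 and 69.1 CPM in spleens, without overlap (-0.37 ± 0.14, edgeR adjusted p = 0.094). The number in the titles was taken as that of a mouse, which the labels do not state. With this number as a block, which pairs CD4+ cells and spleen of the same number, edgeR also called Myc (-0.38, adjusted p = 0.0337), Npm1 (-0.37, adjusted p = 0.023) and Srm (-0.62, adjusted p = 0.00562) lower in CD4+ cells. In all 5 were lower, where 17.2% of tested genes were. Without the VM645 libraries, Odc1 changed by 0.74 ± 0.14 (edgeR adjusted p = 0.0258). Odc1 was called with any 1 library left out, with an adjusted p of 0.0111 to 0.0219, whereas Bop1, Ddx21, Nop16 and Dkc1 were not called without the CD4+ library VM211 or VM216 or the spleen library VM216 or VM645, and Bop1 and Dkc1 were not called without the spleen library VM211 either.

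In CD4-CreERT2 controls, Odc1 was higher in CD4+ cells, where 10.3% of 16951 tested genes were, and 5 of the 34 genes were lower, where 11.3% were. Odc1 had 98.3 and 113 CPM in CD4+ cells against 56.7, 52.7 and 69.7 CPM in spleens (0.85 ± 0.15, edgeR adjusted p = 0.0048). Cad had 22.7 and 23.9 CPM in CD4+ cells against 40.1, 42.6 and 57.2 CPM in spleens (-0.98 ± 0.19, edgeR adjusted p = 0.0064). Neither gene overlapped between tissues. Utp20 (-0.74 ± 0.16), Mybbp1a (-0.69 ± 0.15), Rrp12 (-0.68 ± 0.16) and Polr1b (-0.58 ± 0.14) were the others called lower. Odc1 and Cad were called with any 1 library left out. Without the CD4+ library A3 no other gene of the 34 was called, without the spleen library A2 only Mybbp1a was called besides them, and without the CD4+ library A1 Utp20 and Polr1b were not. Among the numbers with both tissues, 2 genes were lower without the number as a block (Cad and Mybbp1a), where 6.8% of tested genes were. With it 6 were, among them Polr1a (-0.74 ± 0.18, edgeR adjusted p = 0.000207), where 15.8% of tested genes were. Myc changed by -0.29 ± 0.14 (edgeR adjusted p = 0.16). Urb1 (-1.15) and Heatr1 (-0.92) of the assembly lists were also lower in CD4+ cells, while Smox (0.99) and Mxd3 (0.89) were higher. These CD4+ libraries also held markers of other cells. Summed plasma cell markers were 6594 to 6695 CPM in them and 2715 to 5787 CPM in spleens. B cell markers were 2704 to 2863 CPM and 9088 to 9406 CPM. The part of these cells in the tissue differences was not tested.

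Between tissues of tumor mice edgeR called 0 of the 34 genes in either set, where 0% of 17534 genes were called in the CD4-Cre set and 0% of 17467 in the CD4-CreERT2 set. In the CD4-Cre set 3 passed an unadjusted p of 0.05, where 14.2% of all genes did, and DESeq2 called Mybbp1a and Srm lower in CD4+ cells, where it called 3.11% of all genes lower. Srm had 44.2, 59.5, 62 and 37.9 CPM in tumor CD4+ cells against 135.5, 66.9 and 103.6 CPM in tumor spleens, and Mybbp1a 70.8, 99.3, 70.8 and 82.2 CPM against 145.6, 141.3 and 117.9 CPM. Neither gene overlapped between tissues, with log2 fold changes of -1.001 ± 0.299 and -0.74 ± 0.21 (edgeR adjusted p = 0.203 and 0.196). Srm was -0.89 without the CD4+ library VM98, -0.99 without the spleen library VM98 and -1.11 without VM645, and Mybbp1a -0.75, -0.83 and -0.68, none of them called. Odc1 differed by 0.82 ± 0.50. In the CD4-CreERT2 set 0 passed an unadjusted p of 0.05, where 3.85% of all genes did, and DESeq2 called 0, where it called 0.0344% higher and 0.372% lower. The largest differences were Nop16 (-1.27 ± 0.97), Wdr12 (-1.16 ± 0.89) and Odc1 (1.12 ± 0.86). Without the spleen VM294 they were -0.15 ± 0.68, 0.002 ± 0.479 and 0.87 ± 0.91, and Odc1 was -0.61 without the CD4+ library VM231 (edgeR, none called).

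Across the 13 comparisons, Odc1 was called higher in 5 and lower in none. Utp20 and Polr1b were called lower in 4, and Polr1a, Rrp12 and Mybbp1a in 3. Myc, Npm1, Fbl, Nop58, Nolc1, Nop2, Pes1, Gar1, Noc4l, Rrs1, Srm and Mrto4 were called in none of them. The comparisons share libraries, so these counts are not independent of each other.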

How the data were processed

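The authors deposited raw counts of reads per gene for 31 libraries, as whole numbers that are neither scaled nor filtered. RNeasy Micro extraction, SMART-Seq v4 amplification of polyA RNA, Nextera XT and a HiSeq are named per the labels. Alignment with HISAT2 2.1.0, counting with HTSeq 0.5.4 and the builds mm10 and GRCm38 are named per the submitters' processing notes. The annotation release and the strand of counting are not given in the sources used here. The CD4-CreERT2 tables list 49315 Ensembl genes, of which 48970 carry a symbol, and also hold coordinates and exon lengths. The other tables list 55276 symbols with counts alone. Whether the same counter made both kinds is not known. Entries that name no gene were left out.

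Within each set, filterByExpr dropped low-count genes, TMM scaled the libraries, and every gene left was tested with the two-sided quasi-likelihood test of edgeR 4.0.16 (R 4.3.3, limma 3.58.1). The pre-lymphoma groups shared 1 fit, and each tumor and tissue comparison used its own 2 groups. P-values were adjusted by Benjamini-Hochberg across every gene tested in a comparison. The standard error is the size of the log2 fold change over the square root of F. Log2 CPM used a prior count of 2. Amplified reads are not independent molecules, so depth limits counting error only.

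Of the 34 genes, the text gives values per library for Myc and, per comparison, for up to 6 called genes in each direction with the largest changes or, where none was called, for the 3 with the largest differences. Of each other list it names up to 3 called genes per comparison with the largest changes. A few more genes are named with their values after these were seen, such as Gnl3, Mybbp1a, Nop2 and Srm. The members and lists were chosen with earlier results of these data known. CD4+ and spleen libraries with the same number in their titles were taken as 1 animal, which the labels do not state. Deviations of same-numbered libraries from their group means correlated at 0.37 to 0.51 in the CD4-Cre set and at 0.39, 0.49, 0.42 and 0.02 (VM231) in the CD4-CreERT2 set, so the block was tried as an alternative. Other alternatives were RLE scaling, scaling without receptor, immunoglobulin, haemoglobin and mitochondrial genes, no filter, DESeq2 1.42.0, sex as a term, other groups in the fit, and each library left out.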

Additional observations from a re-analysis of the deposited data

Results flagged for a closer look

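In the CD4+ tumor libraries of the CD4-Cre set, the only group with 4 libraries, 35 values were examined (each of the 34 genes and their mean). In 5 of them, 1 library stood farther from the nearest other than Dixon's 95% critical value allows for the group's range, and chance gives about 1 such case in 20. Npm1 had 584 CPM in VM645, against 362.2, 368.3 and 372.2 CPM in the other tumor libraries. Nop56 had 228 CPM in VM645, against 196.7, 197.8 and 194.4 CPM. Nop58, a core protein of the box C/D snoRNPs, had 117 CPM in VM645, against 77.9, 70.7 and 71.8 CPM. Nolc1, a snoRNP chaperone, had 62.9 CPM in VM58, against 45.7, 47.9 and 44.9 CPM. Mrto4, a large subunit factor, had 20.8 CPM in VM98, against 28.1, 28.1 and 29.6 CPM. The first 3 of these are highest in the library whose number is also borne by controls.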

How the results depend on the processing

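The counts of calls named in the text kept their size within 1.5 times under most alternatives, but a count that stayed at 0 is included as kept. No gene of the 34 was called in the main fit between tumor and control, between tissues of tumor mice or for differences of effects. The summary therefore says little on how stable the calls are, and counts above 0 moved over the ranges below. Without the low-count filter 1 of the 34 genes, Odc1, was higher in CD4-Cre CD4+ tumors, where 0.652% of tested genes were. With DESeq2 Odc1 was again the only 1 called there, where 3.65% were called higher. DESeq2 also called 4 higher in CD4-Cre spleen tumors, where 2.42% of tested genes were. Between tissues of CD4-Cre tumor mice it called 2 lower in CD4+ cells, where 3.11% were. The replicate block, with CD4+ cells and spleen of the same number paired, gave 5 lower genes in CD4+ cells of CD4-Cre controls. Of all tested genes, 17.2% were called lower in that fit. In CD4-CreERT2 controls 2 genes were lower without the block among numbers with both tissues, where 6.8% of tested genes were. With the block 6 were lower, Polr1a among them, where 15.8% were. With one library left out, the number of called genes ran from 3 to 9 lower in control/fusion, from 1 to 3 higher in fusion/fusion, from 0 to 1 higher in CD4-Cre CD4+ tumors, from 0 to 4 higher in CD4-Cre spleen tumors and from 0 to 6 higher in CD4-CreERT2 CD4+ tumors. Between tissues of CD4-Cre controls 1 to 3 genes were higher, where 6.86% to 13.2% of tested genes were. There 0 to 3 were lower, where 6.84% to 11.6% were. For the difference between the spleens of both models 0 to 3 were lower, where 0% to 3.38% were.

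The difference in mean log2 CPM over the 34 genes was -0.133 in fusion/fusion against control, -0.106 with scaling that left out receptor, immunoglobulin, haemoglobin and mitochondrial genes, and -0.216 as a median over the genes. In fusion/fusion against control/fusion it was -0.017, and -0.132 as a median. In CD4+ cells against spleen it was 0.023 and -0.092 with that scaling in CD4-Cre controls, and -0.179, -0.128 with that scaling and -0.076 as a median in CD4-CreERT2 controls. With one library left out, it ran from -0.354 to -0.036 for the difference between the tissues' tumor effects and from -0.947 to -0.324 between the spleens' effects. This scaling moved the median of all genes to -0.135 in the tissue comparison of CD4-Cre controls and to -0.207 in that of CD4-CreERT2 tumors.

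Single genes gave 736 values of the same call, which include genes that were not called and stayed so. A further 51 were no longer past the threshold, 18 newly past it and 40 of opposite sign. Most of these 40 were for Myc, which was called in none of the 13 comparisons as reported. Myc in control/fusion was 0.001 with RLE, the other scaling and DESeq2, and 0.007 with only the 2 groups fitted. With sex as a term Myc was -0.152 in CD4-Cre CD4+ tumors, and Myc, Odc1, Wdr43 and Nop16 were -0.007, -0.947, -0.136 and -0.437 in CD4-CreERT2 CD4+ tumors. Between tissues of CD4-CreERT2 tumor mice, Myc was -0.438 with the replicate block and -0.396 without it on the same libraries, and Wdr12 was 0.022 and 0.002. The difference of Myc between the tissues' tumor effects was -0.01 with RLE and DESeq2, -0.052 without the filter, -0.311 with the block, and -0.195 without it or without the VM645 libraries.

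With one library left out, Myc ran from -0.086 to 0.08 in control/fusion. In CD4-CreERT2 CD4+ tumors, Myc ran from -0.018 to 0.735, Odc1 from -0.958 to 1.528, Wdr43 from -0.147 to 0.956 and Nop16 from -0.448 to 1.067, the lowest without VM231 and the highest without VM236. Myc ran from -0.335 to 0.485 in CD4-CreERT2 spleen tumors. Between tissues of CD4-CreERT2 tumor mice, Myc ran from -0.396 to 0.458, Wdr12 from -1.487 to 0.002 and Odc1 from -0.608 to 1.884. Myc ran from -0.195 to 0.226 between the tissues' tumor effects and from -0.661 to 0.185 between the spleens'. The causes of these changes were not tested. Groups of 2 to 4 libraries limit all of these values.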
